A study of Mus musculus with 40 samples.

Results

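The 10 genes described here make, break down and regulate the polyamines putrescine, spermidine and spermine: Odc1, Amd1, Srm, Sms, Sat1, Oaz1, Oaz2, Azin1, Paox and Smox. They were taken by symbol from the 23480 genes listed in the tables. All 10 were listed. Amd1 had 3 reads in total and none in 17 of the 20 libraries, and its difference is not described. Oaz1 had 2 to 14 reads per library and Paox 27 to 124, and both stayed below the minimum level for testing. The other 7 were tested in both tables.

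Expression was measured by RNA sequencing in 4T1, a mouse mammary carcinoma cell line, with each of 10 lines carrying 1 short hairpin RNA, a stem-loop transcript that is processed into a small RNA and lowers matching mRNAs. The aim was to compare off-target effects of TRC-collection hairpins with those of shERWOOD hairpins, which are chosen by an algorithm and housed in a microRNA scaffold. The Slpi table held hairpin 66708 and the shERWOOD hairpins Slpi1U1, Slpi1U2, Slpi2 and Slpi4, and the Mgp table held hairpin 88943 and the shERWOOD hairpins Mgp1, Mgp1U1, Mgp1U3 and Mgp2. Hairpins 66708 and 88943 were taken as the TRC designs from their catalogue-style names and their drug, since no label states the source. The multiplicity of infection was 0.3 in all lines, and drug selection took 10 days on average, 66708 and 88943 with 1 µg/ml puromycin and the other 8 with 500 µg/ml hygromycin. Source, vector and drug therefore cannot be told apart in any comparison of a TRC line with shERWOOD lines. The labels list 4 samples per hairpin, in replicates A and B, while the values come in 2 columns per hairpin, called libraries here. No line without a hairpin was among the samples. Whether the libraries of a hairpin are separate cultures is not stated, and p-values therefore reflect a spread that could be purely technical.

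Ornithine decarboxylase, encoded by Odc1, makes putrescine from ornithine and is the regulated entry step of the pathway. Spermidine synthase (Srm) and spermine synthase (Sms) then add aminopropyl groups, which come from S-adenosylmethionine after its decarboxylation by the product of Amd1. Antizymes (Oaz1, Oaz2) bind ornithine decarboxylase and send it to the proteasome, and the antizyme inhibitor Azin1, an inactive relative of the decarboxylase, captures antizymes. Breakdown runs through the acetyltransferase Sat1, the oxidase Paox, which acts on acetylated polyamines, and the spermine oxidase Smox. Antizymes are made only when ribosomes shift frame, which polyamines promote, and proliferating and tumour cells are known for high polyamine demand.

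Some members share sequence with other genes, which limits how 76-base reads can be assigned, and the antizyme frameshift region is an example. The lines below give 76 bases around the shift site, from the transcripts of the GRCm38 annotation, with TCCTGA in capitals, the codon at the shift and the stop codon that follows it.
Oaz1: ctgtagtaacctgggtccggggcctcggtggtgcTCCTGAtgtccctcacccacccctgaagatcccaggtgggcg
Oaz1-ps: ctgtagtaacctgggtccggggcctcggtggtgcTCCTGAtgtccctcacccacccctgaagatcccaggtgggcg
Oaz2: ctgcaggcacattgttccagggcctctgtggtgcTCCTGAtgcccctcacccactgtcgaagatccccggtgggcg
Oaz1 and its pseudogene Oaz1-ps had 0 mismatches over this stretch, and Oaz2 differed from Oaz1 at 14 of the 76 positions. A read of this length from the stretch could not be assigned to Oaz1 or to its pseudogene. Copies of at least 95% identity over at least 76 bp covered 65.5% of the Oaz1 transcript (longest 685 bp, 99.71% identical) and 99.8% of the Amd1 transcript, where Amd2 matched over 3202 bp at 99.56% identity. The low counts of Oaz1 and Amd1 are therefore uncertain as levels of these genes, and how shared reads were counted is not given in the sources used here. Such copies also covered 62.8% of the Odc1 transcript (8 other genes), 29.6% of Sms, 25.6% of Oaz2, 34.4% of Paox and 7.37% of Azin1, while Srm, Sat1 and Smox had none. How far shared reads changed the counts of any member, Odc1 included, was not tested. Azin1 shares 5.72% of its exon bases with the opposite-strand gene Gm49077, and the strand setting of the counting is not given in the sources used here.

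Odc1 lies on the plus strand of chromosome 12 (GRCm38, 17544794 to 17551505, ENSMUSG00000011179, 12 exons in its main transcript). The 171 bases just before its first annotated start, from RefSeq (GRCm38.p6, plus strand, chr12:17544623-17544793), are shown because Odc1 had the largest difference among the members.
Odc1: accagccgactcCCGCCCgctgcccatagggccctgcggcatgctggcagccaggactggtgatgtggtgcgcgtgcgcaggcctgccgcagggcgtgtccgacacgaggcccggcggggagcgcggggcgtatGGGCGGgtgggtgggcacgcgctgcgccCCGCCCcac
The capitals mark 3 matches to the GC box GGGCGG, searched on both strands. In the full RefSeq window of 300 bases around the Odc1 start there were 4 such matches, and the letters CACGTG (an E-box, the element that MYC and MAX bind) were not found. That window ends at base 17544922, and the rest of the gene, which runs to 17551505, was not searched. Over the 32851 RefSeq promoter windows of that length, 35.66% held GGGCGG and 7.15% held CACGTG. RefSeq windows were matched for 8 of the 10 members, all but Srm and Azin1.

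Levels differed by over 2 orders of magnitude between members. Compared per kilobase of exon as CPM (counts per M counted reads of the library) per kb, Odc1 had the highest median over the 20 libraries, 132 (70.2 to 199), and Srm followed at 120 (77.8 to 173). Azin1 had a median of 36.8 CPM per kb (25.0 to 46.6) and Oaz2 26.5 (18.9 to 31.1). Sat1 and Sms both had a median of 18.7 CPM per kb, with ranges of 16.8 to 23.0 and 15.6 to 21.8. Smox had a median of 14.6 CPM per kb (11.1 to 21.5), Paox 0.825 (0.415 to 1.28) and Oaz1 0.184 (0.0451 to 0.290). The length used was the union of all annotated exons of a gene, 2774 bp for Sat1 and 6010 bp for Sms. Their main transcripts have 896 and 3717 bp, so the order of members depends on the length used.

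**Figure D1:**
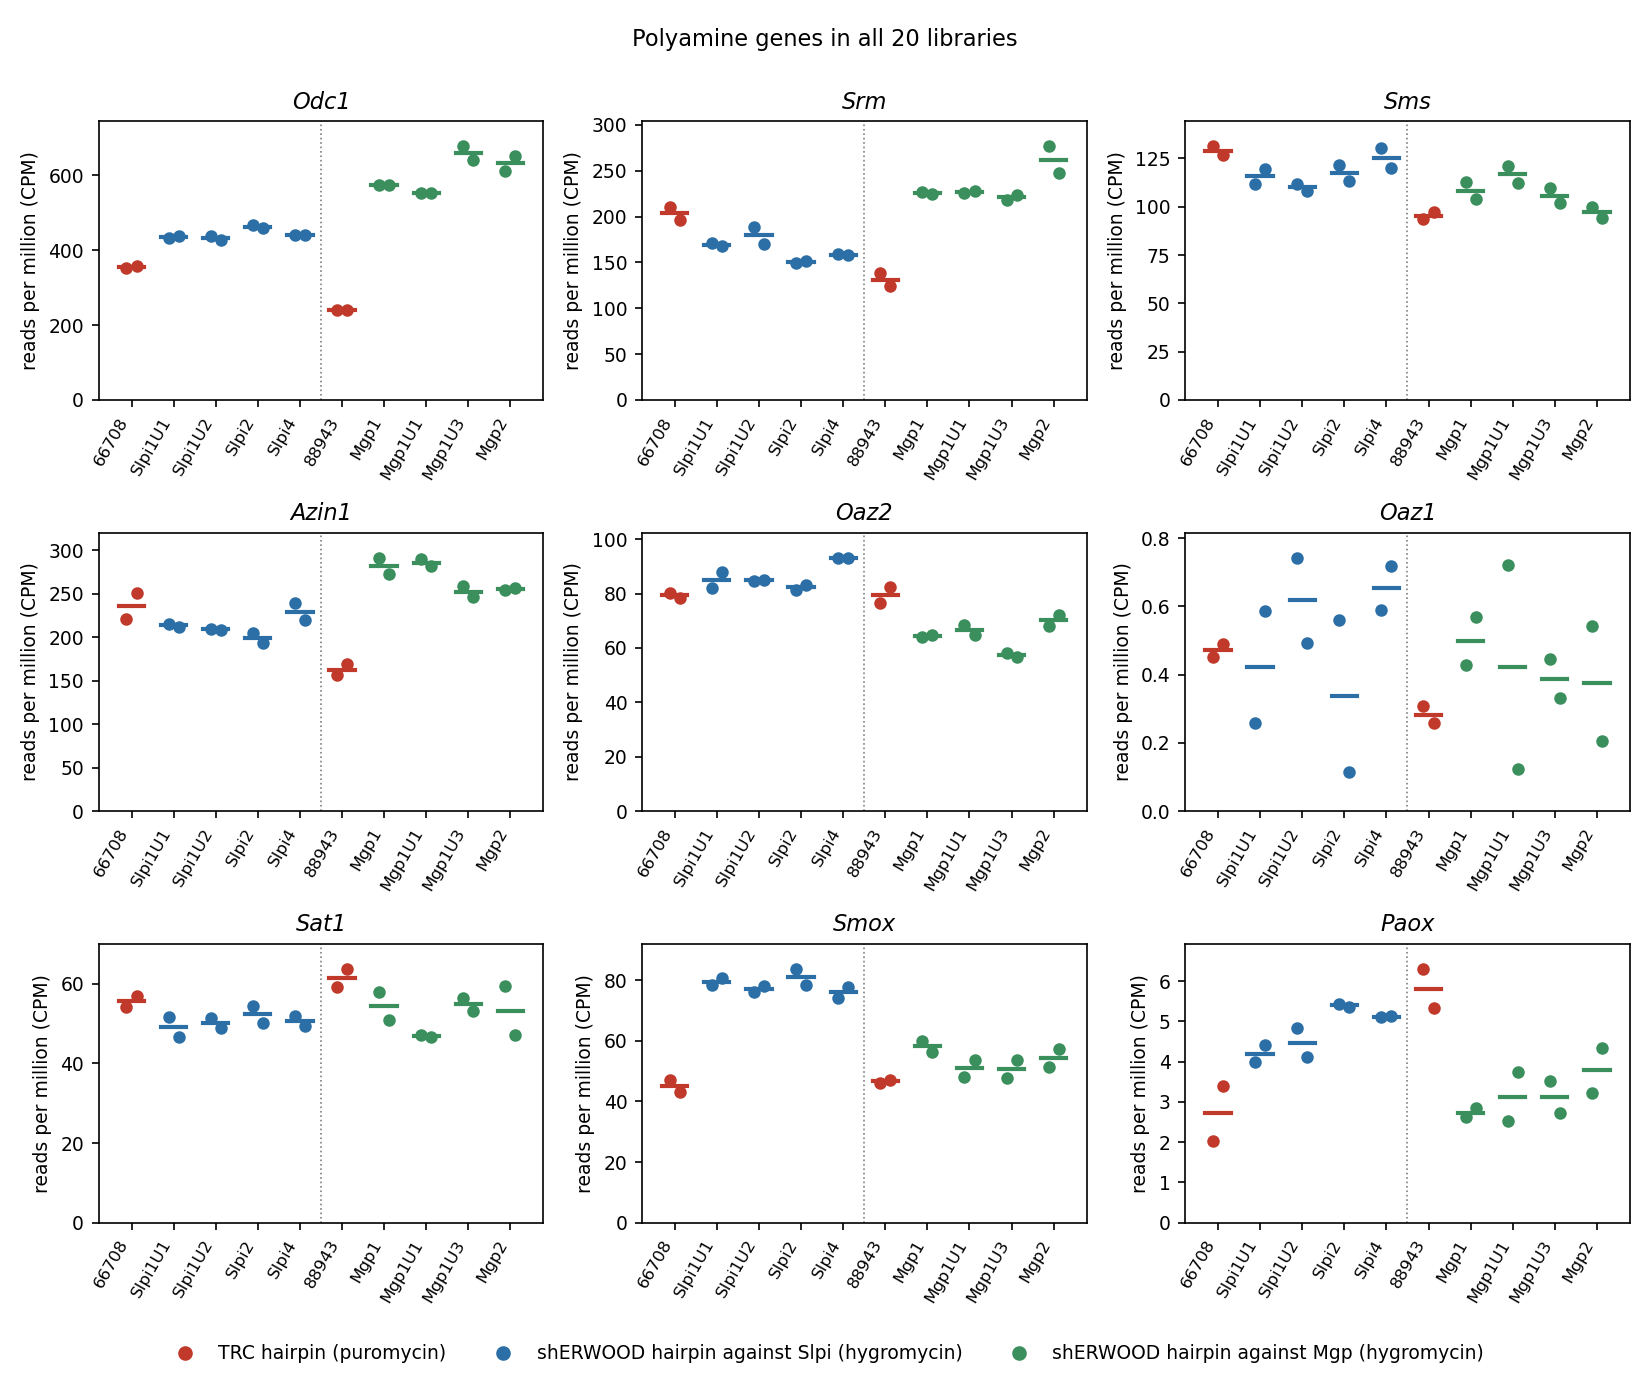
CPM of 9 polyamine genes in all 20 libraries, 1 panel per gene; points are libraries, short lines the mean of the 2 libraries of a hairpin, and the dotted line separates the Slpi table (left) from the Mgp table (right). Odc1 was lowest in 88943 (239 and 240 CPM) and highest in the Mgp-directed shERWOOD lines (551 to 677 CPM), and Smox was highest in the Slpi-directed shERWOOD lines (74.0 to 83.6 CPM).

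Libraries of the Slpi table held 12.2 M to 28.5 M counted reads, and those of the Mgp table held 12.1 M to 23.3 M. Within a table, levels below are scaled reads, the reads divided by the size factor behind the deposited values, and differences are on the deposited variance-stabilized log2 scale, which understates the change of weakly expressed genes. On that scale a doubling from 1000 to 2000 scaled reads is a difference of 0.77 (Slpi table) or 0.75 (Mgp table). Folds are ratios of mean scaled reads. Each target was more abundant under its TRC hairpin than under the shERWOOD hairpins: Slpi had 2627 ± 152 scaled reads (SD, n = 2) in 66708 against 874 ± 104 (SD over 4 hairpin means), and Mgp 257 ± 10.2 in 88943 against 63.9 ± 58.1. The table of a TRC hairpin was taken to give its target. The gene that was not the target differed as well, Mgp being 5.41-fold higher in 66708 than under the Slpi-directed shERWOOD hairpins and Slpi 3.91-fold lower in 88943 than under the Mgp-directed ones. All 8 epithelial markers checked were present at 1 CPM or more in both tables, while of the 7 endothelial and fibroblast markers only Pdgfra reached that level. The summed epithelial markers moved with the TRC line, at 2640 to 2647 CPM in 88943 against 1559 to 1744 for the 4 shERWOOD hairpins of its table, and at 2299 to 2347 CPM in 66708 against 2023 to 2172. The 4 fibroblast markers summed to 55.4 to 58.1 CPM in 88943 against 25.1 to 34.3. In 66708 the fibroblast sum (41.9 to 42.1 CPM) lay within the range of the shERWOOD libraries, the highest of which had 53.5 CPM. The part of these markers in the results below was not tested.

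Hairpin 88943 was compared with the mean of the 4 Mgp-directed shERWOOD hairpins. The tested synthesis genes (Amd1 was not tested) and the antizyme inhibitor Azin1 were all lower in 88943. The folds were 2.77 for Odc1, 1.96 for Srm, 1.82 for Azin1 and 1.23 for Sms. Antizyme inhibitor 2 (Azin2, listed as Adc) was under the minimum level for testing, and its mean was 1.47-fold higher. Smox was 1.26-fold lower, Oaz2 was 1.12-fold higher, and Sat1 did not pass the test. In all, 6 of the 7 tested members were called at an adjusted p under 0.05 (limma's moderated test, Benjamini-Hochberg over all 9174 genes tested), 1 higher and 5 lower. Among all genes tested in this comparison 70.7% were called, 28.7% higher and 42% lower, so the number of members called is near the background. The split of all calls depended on scaling: 40.6% of calls were higher with the deposited scaling, 50.3% with library medians set equal and 59.6% with library totals set equal. The median difference was -0.23 over the 7 members and -0.04 over all genes.

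Odc1 had 3925 and 3887 scaled reads in the 88943 libraries. Its values were 10162 and 10153 in Mgp1, 9930 and 9848 in Mgp1U1, 12303 and 11531 in Mgp1U3, and 10951 and 11555 in Mgp2. Both 88943 libraries thus lay far below all 8 others, and libraries of a hairpin lay close together. The difference was -1.35 ± 0.03 (SE; adjusted p = 3.7e-14), which ranked 9th from the lowest of 9174 genes, and 0.240% of genes had a larger absolute difference.

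Srm (chromosome 4, plus strand, 148591503 to 148594993, ENSMUSG00000006442) had 2257 and 2021 scaled reads in 88943. The 8 shERWOOD libraries ranged from 3971 to 4955 with a median of 4043, without overlap. The difference was -0.82 ± 0.04 (SE; limma, adjusted p = 8.9e-11), and 1.12% of genes had a larger absolute difference. Sms (chromosome X, minus strand, 157443855 to 157492287, ENSMUSG00000071708), which makes spermine from spermidine, had 1528 and 1579 scaled reads in 88943 and 1670 to 2181 (median 1915) in the others. The difference was -0.23 ± 0.04 (adjusted p = 6.8e-05). The groups did not overlap in scaled reads, but in CPM 88943 had 93.5 and 97.1 and the lowest shERWOOD library 94.3.

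Azin1 (chromosome 15, minus strand, 38487427 to 38519266, ENSMUSG00000037458) had 2551 and 2751 scaled reads in 88943, below all 8 shERWOOD libraries at 4436 to 5221 (median 4768). Its difference was -0.75 ± 0.04 (limma, adjusted p = 7.4e-11). Oaz2 (chromosome 9, plus strand, 65668001 to 65690300, ENSMUSG00000040652) had 1253 and 1341 scaled reads in 88943 and 1021 to 1280 (median 1150) in the others, with overlap. Its difference was 0.12 ± 0.03 (adjusted p = 0.0047); without the second 88943 library it was 0.09 and no longer passed (adjusted p = 0.12), and with hairpin means as samples the adjusted p was 0.21.

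Of the breakdown genes, Smox (chromosome 2, plus strand, 131491496 to 131525922, ENSMUSG00000027333) had 755 and 762 scaled reads in 88943, below the 868 to 1062 (median 961) of the shERWOOD libraries. Its difference was -0.22 ± 0.04 (limma, adjusted p = 0.00014). Sat1 (chromosome X, minus strand, 155213132 to 155216449, ENSMUSG00000025283) had 968 and 1035 scaled reads against 832 to 1065 (median 931). Its difference was 0.07, with a 95% interval of -0.04 to 0.18 (limma, adjusted p = 0.23). The Sat1 difference passed with library totals set equal (0.16, adjusted p = 0.0065) and with quantile normalization (0.13, adjusted p = 0.026). Without the first Mgp2 library it was 0.10. Paox (chromosome 7, plus strand, 140115799 to 140137224, ENSMUSG00000025464) had 103 and 86.5 scaled reads in 88943 and 45.5 to 77.0 (median 54.0) in the others. In a fit without the minimum level, in which 43.6% of 19354 genes were called, its difference was 0.18 ± 0.04 (adjusted p = 0.0032) and its mean 1.66-fold higher. Both libraries of 88943 lay outside the other 8 for 5 of the 7 tested members, all below; for all genes tested the share was 60.4% outside, 24.3% above and 36.2% below.

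Hairpin 66708 was compared with the mean of the 4 Slpi-directed shERWOOD hairpins. Here Srm was 1.32-fold higher, and Azin1, Sms and Sat1 were 1.18-fold, 1.17-fold and 1.17-fold higher. Smox was 1.63-fold lower and Odc1 1.17-fold lower, and Oaz2 did not pass the test. Again 6 of the 7 tested members were called, 4 higher and 2 lower, while 55.7% of all 9489 genes tested were called, 32.1% higher and 23.6% lower. Of all calls, 57.6% were higher with the deposited scaling, 48.3% with library medians set equal and 37.7% with library totals set equal. The median difference was 0.16 over the members and 0.02 over all genes.

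Smox had 822 and 752 scaled reads in 66708 and 1227 to 1369 (median 1282) in the 8 shERWOOD libraries, without overlap. Its difference of -0.50 ± 0.04 (SE; limma, adjusted p = 5.3e-08) was the largest of the members in this table, and 2.21% of genes had a larger absolute difference. Sat1 had 947 and 990 scaled reads against 764 to 892 (median 831), with a difference of 0.16 ± 0.04 (adjusted p = 0.0029). The Sat1 call was lost without the second 66708 library (adjusted p = 0.052) and with library totals set equal (adjusted p = 0.058), and the CPM values of the groups overlapped. Paox had 35.6 and 59.1 scaled reads against 64.5 to 89.1 (median 81.2), and without the minimum level, where 27.5% of 21107 genes were called, its difference was -0.18 ± 0.04 (adjusted p = 0.0099) and its mean 1.66-fold lower.

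Odc1 had 6162 and 6207 scaled reads in 66708. The values were 7015 and 7164 in Slpi1U1, 7075 and 6994 in Slpi1U2, 7663 and 7595 in Slpi2, and 7298 and 7286 in Slpi4. The 66708 libraries were the lowest of the table, with a difference of -0.22 ± 0.03 (SE; limma, adjusted p = 5.9e-05). Srm had 3687 and 3413 scaled reads in 66708, above the 2447 to 3037 (median 2690) of the others, with a difference of 0.35 ± 0.04 (adjusted p = 2.9e-06). Sms had 2294 and 2208 against 1770 to 2160 (median 1917), a difference of 0.19 ± 0.04 (adjusted p = 0.00078). Only Odc1 and Srm among these 3 synthesis genes were also apart in CPM.

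Azin1 had 3861 and 4374 scaled reads in 66708 and 3206 to 3968 (median 3439) in the others, with overlap. Its difference was 0.21 ± 0.04 (limma, adjusted p = 0.00078). With hairpin means as samples Azin1 and Sms no longer passed, at adjusted p = 0.051 and 0.057. Oaz2 had 1401 and 1365 scaled reads against 1327 to 1545 (median 1384), a difference of -0.02 with a 95% interval of -0.10 to 0.05. With library totals set equal the Oaz2 difference was -0.09 (adjusted p = 0.034). Oaz1, at 2 to 14 reads per library, did not pass in the fits without the minimum level, at adjusted p = 0.93 for 66708 and 0.44 for 88943. Both 66708 libraries lay outside the other 8 for 5 of the 7 members, 3 above and 2 below, and for 48.6% of all genes tested, 28.3% above and 20.4% below.

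**Figure D2:**
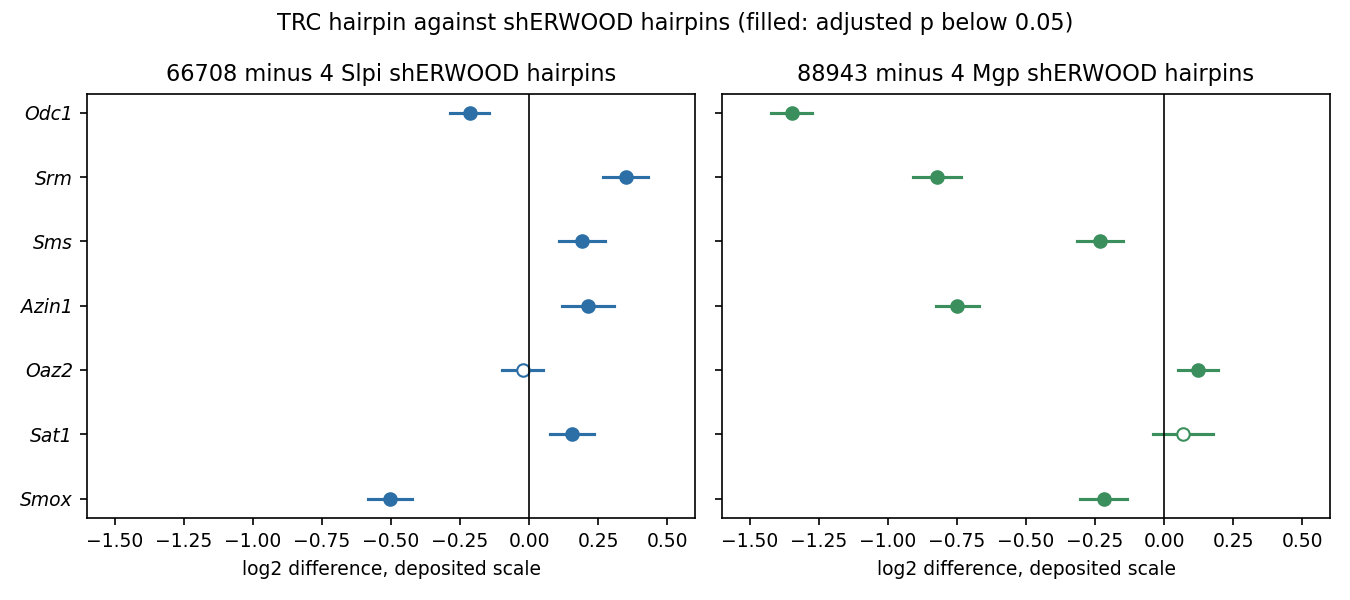
Difference of the TRC hairpin from the mean of the 4 shERWOOD hairpins for the 7 tested polyamine genes, on the deposited log2 scale, with 95% intervals; filled points passed at an adjusted p under 0.05. Odc1, Srm and Azin1 lay furthest to the left for 88943 (-1.35, -0.82 and -0.75), and for 66708 Smox was the lowest (-0.50) and Srm the highest (0.35).

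The shERWOOD hairpins of a table were also compared with each other. Among the 4 Slpi-directed hairpins limma's F test called 0 of the 7 members, where 7.55% of all genes were called; 4 members had an unadjusted p under 0.05, and voom on the recovered reads also called 0 (4 unadjusted). Without the second library of Slpi1U1 or of Slpi1U2 it called 1. At the level of pairs, 1 of 42 comparisons passed, Sms in Slpi1U2 against Slpi4 (-0.18, adjusted p = 0.047), where 6.48% of genes passed. In the 5 other pairs of Slpi-directed hairpins 0.79%, 1.64%, 2.4%, 4.18% and 4.66% of genes passed. Pairs of 66708 with a shERWOOD hairpin passed in 22 of 28 comparisons; of all genes 48% passed against Slpi1U1, 48.5% against Slpi1U2, 48% against Slpi2 and 38.5% against Slpi4.

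Among the 4 Mgp-directed hairpins the F test called 5 of the 7 members, where 29.4% of all genes were called: Odc1 (adjusted p = 0.0021), Oaz2 (0.021), Srm (0.022), Sms (0.025) and Azin1 (0.033). It called 3 when the first Mgp1, either Mgp1U1 or the second Mgp1U3 library was left out, and 1 without the minimum level. From high to low, Odc1 ran Mgp1U3, Mgp2, Mgp1 and Mgp1U1. Neither the first and the second nor the third and the fourth of these differed beyond their spread, while all 4 pairs across the middle passed, with differences of 0.14 to 0.26 in size. Srm was higher in Mgp2 than in each of the 3 others (by 0.18 to 0.20), Sms was higher in Mgp1U1 than in Mgp2 (0.22, adjusted p = 0.014), and Oaz2 was lower in Mgp1U3 than in Mgp2 (-0.19, adjusted p = 0.0068). In all, 9 of 42 pairs of shERWOOD hairpins passed. Over all genes 25.1% passed between Mgp1U3 and Mgp2 and 12% between Mgp1 and Mgp2, and in the 4 other pairs 7.24%, 7.66%, 7.68% and 8.26%. Pairs with 88943 passed in 23 of 28 comparisons, where 63.3% of genes passed against Mgp1, 64% against Mgp1U1, 67.3% against Mgp1U3 and 64% against Mgp2.

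Across the tables, which were normalized separately, levels are given as CPM and without a test. Odc1 had 604 ± 49.6 CPM (SD over 4 hairpin means) under Mgp-directed and 443 ± 13.7 under Slpi-directed shERWOOD hairpins, 355 in 66708 and 240 in 88943, so that both TRC lines were the lowest of the 10. Srm had 234 ± 19.0 CPM (Mgp-directed) and 164 ± 12.6 CPM (Slpi-directed), 204 in 66708 and 131 in 88943. Azin1 had 269 ± 17.4 and 213 ± 12.6 CPM, 236 in 66708 and 163 in 88943. For Srm and Azin1 66708 therefore lay between the groups of shERWOOD lines and 88943 below all others. Smox ran the other way between the shERWOOD groups, with 53.5 ± 3.51 CPM in the Mgp-directed and 78.3 ± 2.25 in the Slpi-directed lines, against 45.1 in 66708 and 46.6 in 88943. Sat1 varied least, from 46.8 to 61.5 CPM over the 10 hairpin means, with both TRC lines at the top.

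Ratios of transcripts within a library do not depend on its scaling. Their size depends on the exon lengths used, but a comparison of the same ratio between lines does not. The ratio of Odc1 to Azin1, both per kilobase, was 2.77 in 66708 and 2.71 in 88943 and 3.53 to 4.79 in the 8 shERWOOD lines. The ratio of Odc1 to Oaz2 was 2.65 in 88943 against 7.28 to 10.1 under the Mgp-directed shERWOOD hairpins, and 3.93 in 66708 against 4.15 to 4.94 in the Slpi-directed ones. The ratio of Smox to Sat1 was 0.579 in 66708 and 1.07 to 1.15 in the Slpi-directed shERWOOD lines. In 88943 it was 0.540, against 0.659 to 0.774 in the Mgp-directed shERWOOD lines. The ratio of Odc1 to Smox was higher in 66708 (9.01 against 6.27 to 6.63) and lower in 88943 (5.89 against 11.3 to 14.9). The ratio of Srm to Sms in 66708 (5.93) lay within the shERWOOD range of 4.77 to 6.13, and in 88943 it was 5.18 against 7.31 to 10.1. These 5 ratios are descriptions without a test.

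**Figure D3:**
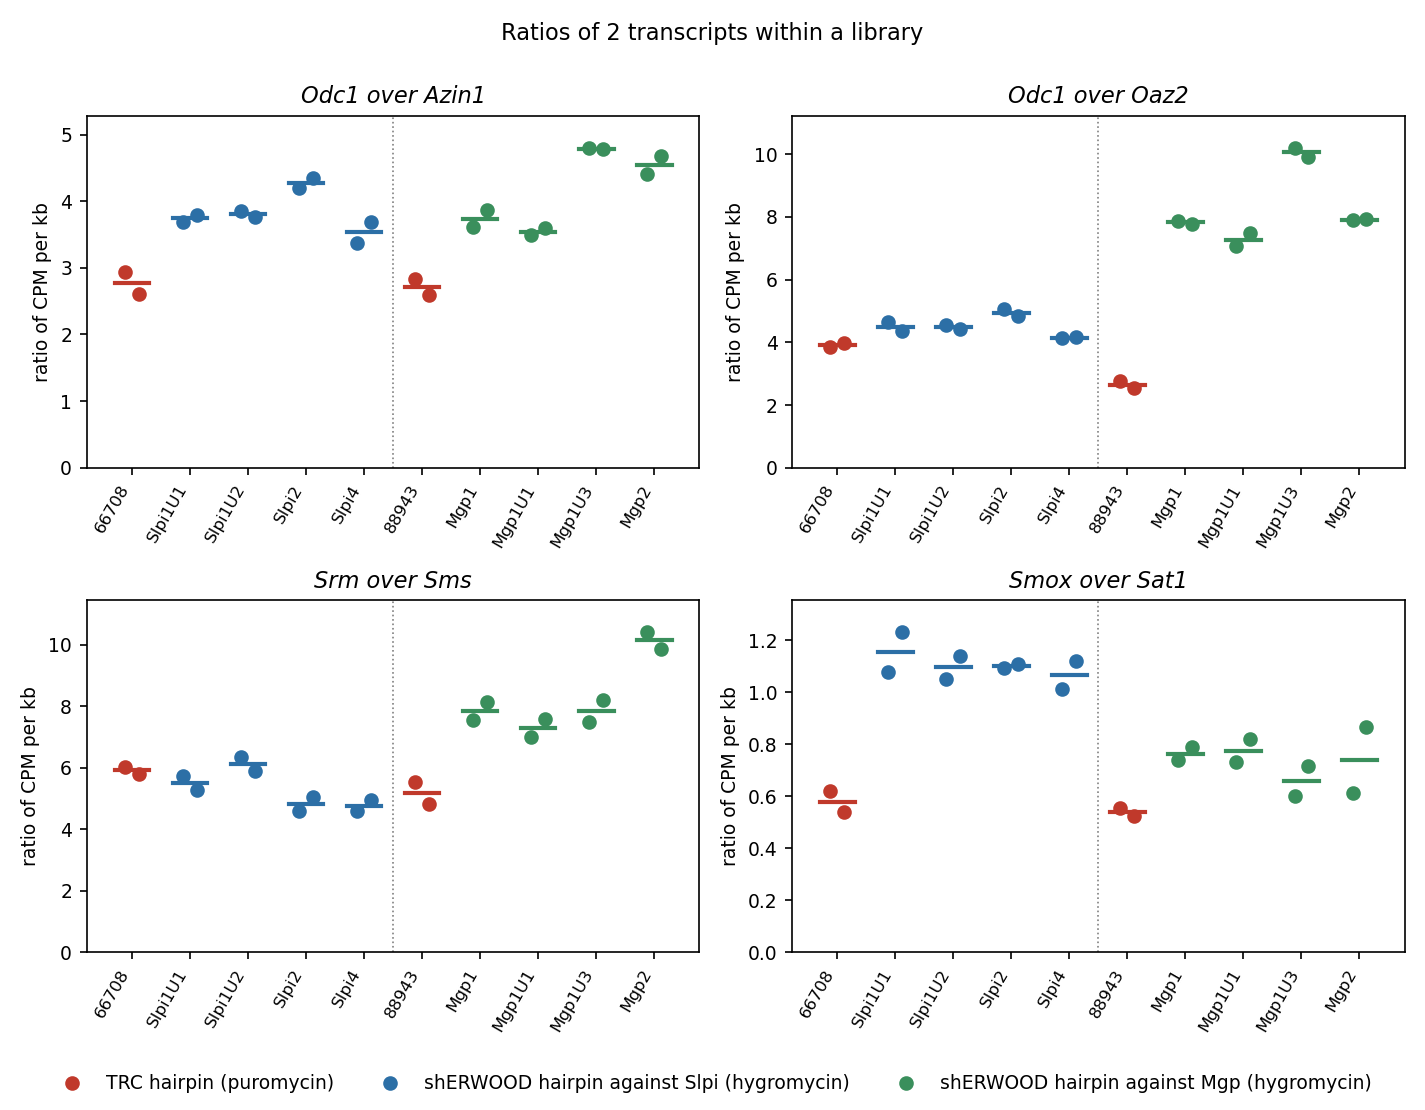
Ratios of CPM per kb of pairs of polyamine transcripts in each library (points) with the mean of the 2 libraries of a hairpin (lines), Slpi table left and Mgp table right of the dotted line. The ratio of Odc1 to Azin1 was lowest in both TRC lines (2.77 and 2.71), and the ratio of Odc1 to Oaz2 was lowest in 88943 (2.65).

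The genes whose levels followed Odc1 most closely over the 10 libraries of each table, among 9144 genes tested in both, were Tubb2a, a beta-tubulin (Pearson's r = 0.97 in both tables), Plin2, a lipid droplet protein (0.95 and 0.96 in the Slpi and Mgp tables), Gpr126, an adhesion receptor (0.94 and 0.98), Nes, an intermediate filament protein (0.95 and 0.94), and Dtwd1 (0.96 and 0.93). Since they were picked for following Odc1 over the same libraries, their lower values in both TRC lines (Plin2 -0.96 in 66708 and -0.29 in 88943, for example) are largely fixed by that choice. For Sat1 the closest were Clcn4-2 (0.81 and 0.84), Laptm4a (0.85 and 0.77), Col4a2 (0.82 and 0.77), Tspan14 (0.84 and 0.75) and Mboat7 (0.80 and 0.74). Among the members, Smox followed Odc1 in both tables (0.93 and 0.79), while Srm did so with opposite sign (-0.97 over the Slpi libraries, 0.96 over the Mgp libraries), as did Azin1 (-0.72 and 0.93). These correlations describe 10 libraries of 5 hairpins that share their table's scaling, and they include the gap between the TRC line and the others. Among the Mgp-directed shERWOOD hairpins, Odc1 in CPM ran from high to low Mgp1U3, Mgp2, Mgp1 and Mgp1U1. Smox there ran Mgp1, Mgp2, Mgp1U1 and Mgp1U3, and Azin1 ran Mgp1U1, Mgp1, Mgp2 and Mgp1U3. No pair of these hairpins passed for Smox or Azin1.

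Around the pathway, 48 genes in 7 lists supply its substrates, use its products or regulate it. Of the 27 genes tested for 66708, 9 were higher, 7 lower and 11 did not pass; of the 26 genes tested for 88943, 5 were higher, 13 lower and 8 did not pass. These are 16 of 27 and 18 of 26 called, near the shares over all genes (55.7% and 70.7%). The median difference over these genes was 0.03 and -0.11, beside 0.02 and -0.04 over all genes. None of the 5 listed paralogs and further breakdown genes reached the minimum level in either table.

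In the methionine cycle, which supplies the aminopropyl donor, 3 of 5 tested genes were lower in 88943 and none higher, beside 42% lower and 28.7% higher over all genes. Mat2a, the S-adenosylmethionine synthetase of most cells, had 3558 and 3763 scaled reads in 88943 and 8029 to 9314 (median 8676) in the Mgp-directed shERWOOD libraries, 2.37-fold lower (-1.14 ± 0.03, limma, adjusted p = 2.7e-13). Its exons share 11.3% of their bases with the opposite-strand gene Particl. In 66708 Mat2a was 1.30-fold higher (0.36 ± 0.04, limma, adjusted p = 1.0e-06). There 2 of the 5 genes were higher and 1 lower, beside 32.1% higher and 23.6% lower over all genes. Ahcy, which removes S-adenosylhomocysteine, was lower in 88943 (-0.28) and higher in 66708 (0.15, lost with library totals set equal, adjusted p = 0.14, with quantile normalization, adjusted p = 0.064, with hairpin means as samples, adjusted p = 0.057, and without either 66708 library, adjusted p = 0.060 and 0.057). Of its relatives, Ahcyl1 was lower in 66708 (-0.12), a call lost with hairpin means as samples (limma, adjusted p = 0.14). Without the first 66708 library its difference was -0.09. In 88943 Ahcyl1 had 0.03, but it passed as higher with quantile normalization (0.17, adjusted p = 0.00085) and library totals set equal (0.14, adjusted p = 0.0040). Ahcyl2 was lower in 88943 (-0.13), with -0.07 in 66708. The 88943 call on Ahcyl2 was lost with library totals set equal (adjusted p = 0.19) and hairpin means as samples (adjusted p = 0.10). The 66708 value of Ahcyl2 passed with library medians set equal (-0.10, adjusted p = 0.036), quantile normalization (-0.10, adjusted p = 0.027) and library totals set equal (-0.13, adjusted p = 0.0090).

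Salvage of methylthioadenosine, the by-product of both synthase steps, held 5 tested genes, of which 2 were lower in 88943 and 2 higher in 66708, close to the 42% and 32.1% over all genes. Enoph1, an enzyme of the later salvage steps, was 1.96-fold lower in 88943 (-0.60 ± 0.03, limma, adjusted p = 3.2e-10) and 1.29-fold higher in 66708 (0.24 ± 0.04, adjusted p = 5.0e-05). Mtap, the phosphorylase that opens the route, was lower in 88943 (-0.14) but higher with quantile normalization (0.11), and had 0.09 in 66708, which passed without the first Slpi1U1 library (0.10, adjusted p = 0.041). Adi1, a late enzyme of the route, was higher in 66708 (0.11, adjusted p = 0.036), a call lost with library medians set equal (adjusted p = 0.11), quantile normalization (adjusted p = 0.13), library totals set equal (adjusted p = 0.35), no filter (adjusted p = 0.076), controls without Slpi2 (adjusted p = 0.10), hairpin means as samples (adjusted p = 0.18), and without the second library of 66708, Slpi1U2, Slpi2 or Slpi4. Adi1 had 0.01 in 88943.

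Hypusination uses spermidine to modify the translation factor eIF5A, and all 4 of its genes were lower in 88943, where 42% of all genes were lower. Eif5a had 5712 and 6014 scaled reads in 88943 against 7619 to 10475 (median 8551), without overlap (-0.54 ± 0.05, limma, adjusted p = 1.7e-07). Eif5a2 (-0.30), Dhps, the deoxyhypusine synthase (-0.23), and Dohh, the hydroxylase of the last step (-0.26), were lower as well. In 66708 Eif5a (0.24) and Dohh (0.21) were higher, both calls lost without the first 66708 library (adjusted p = 0.17 and 0.070) and that on Eif5a also with quantile normalization (adjusted p = 0.060), and Eif5a2 (-0.01) and Dhps (0.00) did not pass. Dohh shares 47.5% of its exon bases with the same-strand gene Gm48551, so its counts are uncertain.

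Ornithine and proline share precursors, and the 3 tested genes of that list passed in both tables, where 55.7% (66708) and 70.7% (88943) of all genes passed. Aldh18a1, which makes the glutamate semialdehyde precursor of both, was 2.25-fold higher in 88943 (0.84 ± 0.03, limma, adjusted p = 6.7e-12), with 1818 and 1820 scaled reads against 728 to 893 (median 803). In 66708 it was 1.90-fold lower (-0.66 ± 0.04, adjusted p = 7.1e-09). The cationic amino acid transporter Slc7a1 was higher in 88943 (0.28) and lower in 66708 (-0.24), with overlap in the Slpi table. Oat, ornithine aminotransferase, was lower in 88943 (-0.18, lost with library totals set equal, adjusted p = 0.056) and higher in 66708 (0.16).

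Of the transport genes, Slc3a2, the heavy chain of amino acid exchangers that has been linked to polyamine export, was 1.74-fold higher in 88943 (0.68 ± 0.03, limma, adjusted p = 8.1e-11) and 1.48-fold lower in 66708 (-0.45 ± 0.03, adjusted p = 6.1e-08). The 66708 call on Slc3a2 was lost with hairpin means as samples (adjusted p = 0.11), as was that on Slc7a1 (adjusted p = 0.27). Of the lysosomal and endosomal polyamine pumps, Atp13a3 was lower (-0.41) and Atp13a2 higher (0.24) in 88943; in 66708 they had -0.05 and 0.04, and Atp13a3 passed there with quantile normalization (-0.10, adjusted p = 0.042) and library totals set equal (-0.13, adjusted p = 0.017). The proteoglycan Gpc1 was higher in 66708 (0.37) and 88943 (0.10, lost without either 88943 library), and Cav1, the caveolin of one uptake route, was lower in 66708 (-0.24), with -0.04 in 88943.

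MYC and its partner MAX are known activators of Odc1. Myc was lower in 66708 (-0.19 ± 0.04, limma, adjusted p = 0.0012), a call lost with hairpin means as samples. In 88943 Myc had -0.10 (limma, adjusted p = 0.074), a sign that turned with quantile normalization (0.08) and with library totals set equal (0.03). Without the first 88943 library it was -0.17 (adjusted p = 0.030), and without the second Mgp2 library -0.12 (adjusted p = 0.0027). Max was higher in 66708 (0.43) and lower in 88943 (-0.26). Of the tested MAX-binding repressors, Mnt was lower in 88943 (-0.25), with -0.02 in 66708. Mga was lower in 66708 (-0.20, but -0.07 without the first 66708 library), with -0.04 in 88943. The repressors Mxd1, Mxd3 and Mxd4 stayed below the minimum level for testing. In limma's fit without that level, Mxd1 and Mxd4 were higher in 66708 (0.14 and 0.18, adjusted p = 0.013 and 0.0012). They were also higher in 88943 (0.23 and 0.16, adjusted p = 0.00011 and 0.0021). Mxd3 had -0.05 in 66708 (adjusted p = 0.32) and 0.12 in 88943 (adjusted p = 0.020).

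**Figure D4:**
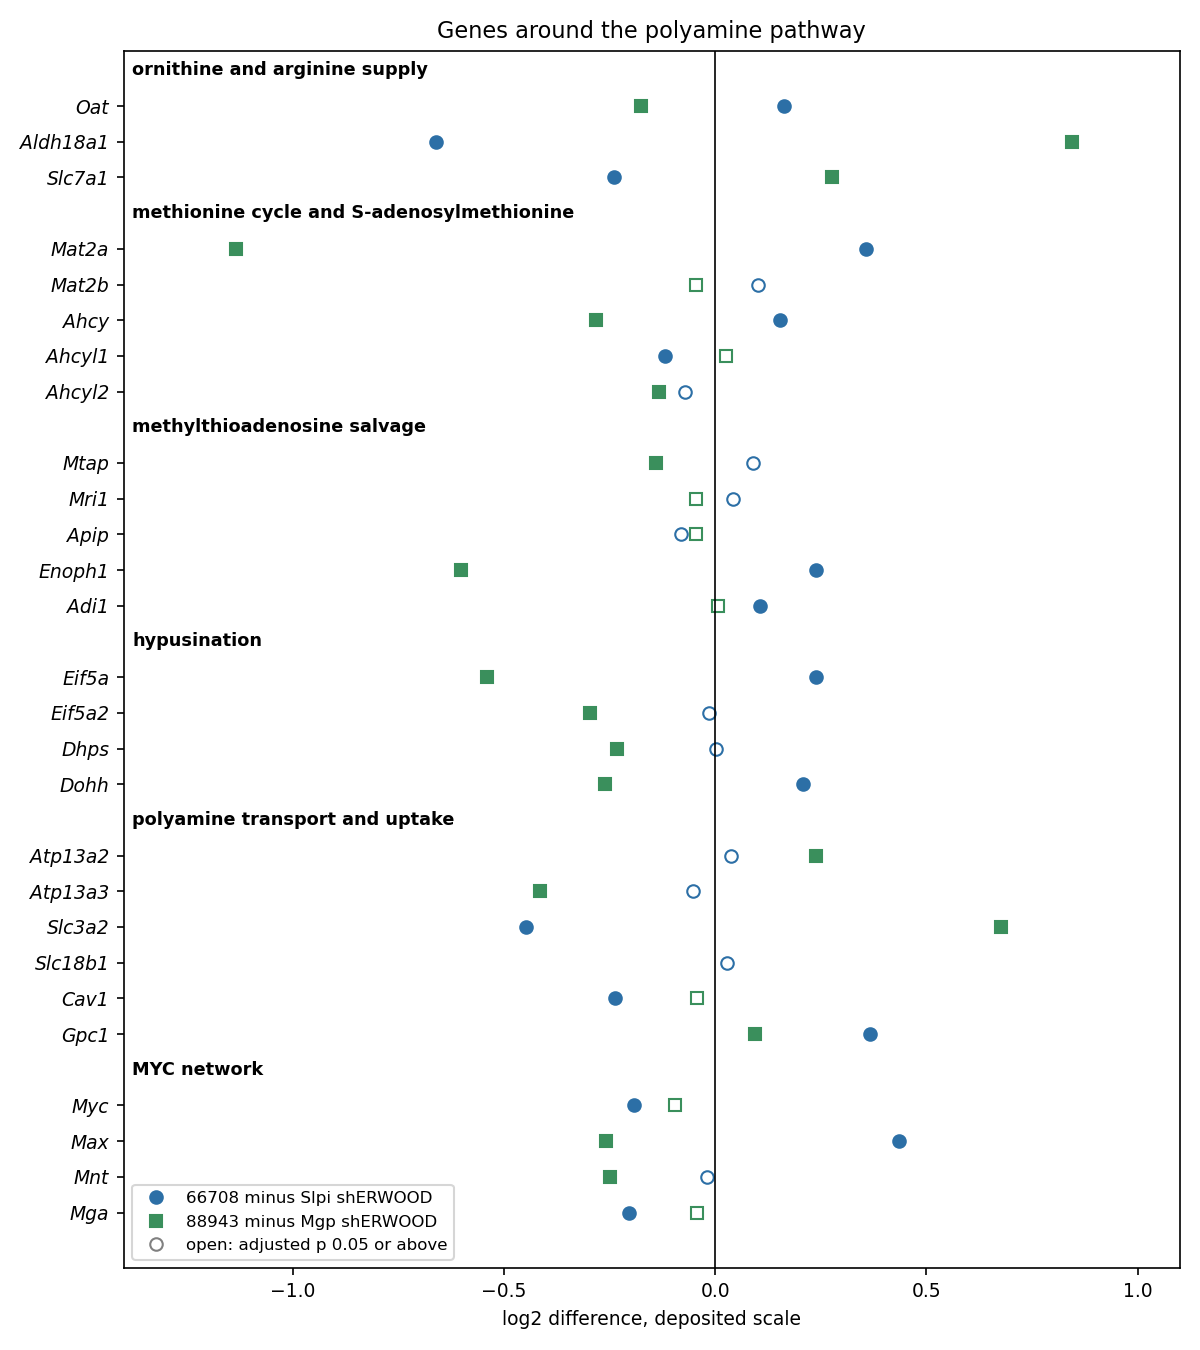
Differences of the TRC hairpin from the mean of the 4 shERWOOD hairpins on the deposited log2 scale for the tested genes around the polyamine pathway, by list; circles are 66708 and squares 88943, and open symbols did not pass. The hypusination genes all lay below 0 for 88943, and Mat2a (-1.14) and Aldh18a1 (0.84) were furthest from 0.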

How the data were processed

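RNA from 4T1 lines with 10 hairpins was sequenced, and 20 columns (2 per hairpin) were analysed; the labels list 40 samples, which could not be tied to single columns. The deposited values are log2-like variance-stabilized expression; the submitters' processing notes name Bowtie2, HTSeq, DESeq and mm10, without versions. The deposited transform was inverted, and 100% of values gave whole reads (tolerance 0.001); CPM and scaled reads come from these. Tests used limma 3.58.1 (R 4.3.3) with an intensity trend on the deposited values, 1 mean per hairpin and all 5 hairpins of a table in the fit, two-sided, adjusted by Benjamini-Hochberg over genes whose mean was at least 1 unit above the smallest value (121 scaled reads in the Slpi table, 139 in the Mgp table). The script was tested on simulated data. Tables were never tested against each other. Named genes were the members, both targets and the 5 genes most correlated with Odc1 and with Sat1. Up to 3 called genes of each pathway list per comparison with the largest differences were named as well. Further list genes in small counts (Dhps) and untested list genes (Adc, Mxd1, Mxd3 and Mxd4) were named after their values were seen. Members and lists were chosen with earlier results of these data known. Alternatives covered scaling, filters, voom on the recovered reads, the trend, the block, hairpin means as samples and left-out libraries or hairpins. A further marker list is not reported here.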

Additional observations from a re-analysis of the deposited data

Results flagged for a closer look

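In 14 groups of 4 shERWOOD hairpin means, a test for a single outlying hairpin picked out 2, where chance gives about 1 in 20. Oaz2 in Slpi4 stood at 10.96 on the deposited log2 scale, with the 3 other Slpi-directed hairpins at 10.82 to 10.84. Srm in Mgp2 stood at 12.35, with the 3 other Mgp-directed hairpins at 12.15 to 12.17.

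For 10 of the members and pathway genes tested in both tables, both libraries of 66708 lay to one side of their shERWOOD libraries and both libraries of 88943 to the opposite side of theirs; the difference between the comparisons was not tested. This held for 2 of 7 members and 8 of 26 pathway genes, and for 2056 of 9144 genes tested in both tables (22.5%). Paox and the pathway gene Adc (Azin2), both under the minimum level for testing, lay below in 66708 and above in 88943. In limma's fit without that level, Adc had -0.08 in 66708 (adjusted p = 0.061) and 0.13 in 88943 (adjusted p = 0.0087). Srm (0.35 in 66708 and -0.82 in 88943), Sms (0.19 and -0.23), Mat2a (0.36 and -1.14), Ahcy (0.15 and -0.28), Enoph1 (0.24 and -0.60), Eif5a (0.24 and -0.54), Dohh (0.21 and -0.26) and Oat (0.16 and -0.18) were higher in 66708 and lower in 88943. Aldh18a1 (-0.66 and 0.84) and Slc3a2 (-0.45 and 0.68) were lower in 66708 and higher in 88943.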

How the results depend on the processing

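The number of members called against the TRC hairpin stayed within 1.5 times of 6 for both TRC lines under each alternative run. With a minimum of 3 units above the smallest value, 15 pairs of Slpi-table hairpins passed, where fewer genes were tested. The F test among the Slpi-directed hairpins called 1 member with library totals set equal (an alternative chosen after seeing the data) and 0 to 1 when 1 library was left out; among the Mgp-directed hairpins it called 1 without the filter and 3 to 5 when 1 library was left out. Of the single-gene values that turned sign, only Mtap in 88943 passed the test with the new sign. For 66708 they were Mtap -0.0116 (quantile normalization), Atp13a2 -0.00485 (library totals set equal), Eif5a2 0.0150 (controls without Slpi1U1) and 0.0124 (controls without Slpi4), Mnt 0.00766 and Oaz2 0.00890 (controls without Slpi4). With 1 library left out the 66708 values ran from -0.127 to 0.0216 for Atp13a3, -0.0311 to 0.00264 for Eif5a2 and -0.0468 to 0.00908 for Mnt. For 88943 they were Cav1 0.000902 and Mga 0.000864 (library medians set equal), Mga 0.0582, Mtap 0.115 and Myc 0.0788 (quantile normalization), Cav1 0.0254, Mga 0.0595 and Myc 0.0297 (library totals set equal), and Adi1 -0.0148 (controls without Mgp1U1). With 1 library left out the 88943 values ran from -0.0154 to 0.0305 for Adi1 and -0.00701 to 0.0575 for Ahcyl1. The cause was not tested.

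The column numbers gave no common pairing of the libraries, since correlations of same-numbered deviations ran from -0.53 to 0.55. A batch shared by libraries with different column numbers was not tested. With a replicate block 6 members were called for each TRC line, among 5199 genes for 66708 and 6595 for 88943; Myc in 88943 then passed (-0.10, adjusted p = 0.037), and no other named gene changed its call.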
